A study of Sus scrofa with 12 samples.

Results

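Livers of Hezuo pigs kept at -15 ± 2 °C were compared with livers of Bama pigs kept at the same temperature, in small RNA libraries from day 15. The comparison took the 3 libraries labelled Hezuo cold and the 3 labelled Bama cold, 6 of the 12 libraries of the series, and every entry of the miRNA table. The other 6 libraries, 3 Hezuo normal and 3 Bama normal at 23 ± 2 °C, served as a second pair of the same breeds and shared the estimate of the spread. The series asks which RNAs mark the cold resistance of Hezuo pigs, and this comparison asks which liver miRNAs differ between the breeds while both are cold. Hezuo and Bama are Chinese local breeds, the first from a cold plateau and the second a small southern pig. Each group is 1 breed at 1 temperature, so breed cannot be told apart from anything else that differed between the animals of these groups. Sex, age, litter and sequencing batch were not found in the labels. Nor do the labels say whether a pig number names separate animals at both temperatures, so p-values measure the spread between these samples only.

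MiRNAs are short RNAs cut from hairpin precursors, and each hairpin can yield a guide from either of its strands. The guide sits in an Argonaute protein and lowers the output of mRNAs that pair with its seed, bases 2 to 8 from the 5′ end. Hepatocytes are known for miR-122 and for the miR-192, miR-194 and miR-148 families, which take most of the miRNA of a liver. In bulk tissue, fewer cells of a type and less RNA per cell cannot be told apart.

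The sequences that carry the breed difference are printed in the DNA letters of the deposited table, 5′ to 3′, with the seed in capitals. First come the entries of the miR-204 hairpin, shown because the main strand, a longer form and the opposite strand all differed the same way.
miR-204: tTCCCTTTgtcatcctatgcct
miR-204-x: tTCCCTTTgtcatcctatgcctgt
miR-204-y: gCTGGGAAggcaaagggacgt
The next pair is shown because its sequences are nearly complementary. The predicted miRNAs have only serial names in the table and are called A to E here.
miR-6715-z: aCAGGCACggctggtttgagc
predicted miRNA A: cCAAACCAgttgtgcctgtag
The miR-194 and miR-192 sequences are shown because 1 entry of each pair was called and the other, 1 base or a few 3′ bases apart, was not.
miR-194b-5p: tGTAACAGcgactccatgtgga
miR-194a-5p: tGTAACAGcaactccatgtgg
miR-192: cTGACCTAtgaattgacagcc
miR-192-z: cTGACCTAtgaattgacagccatt
The last set holds the entries that were lower in Hezuo cold livers by the largest factors, with miR-29b.
miR-184: tGGACGGAgaactgataagggt
miR-490: cAACCTGGaggactccatgctg
miR-9843-3p: tCTGTGAActagaaacctctgg
miR-29b: tAGCACCAtttgaaatcagtgtt

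Both groups had the miRNA profile of hepatocytes. MiR-122-5p took 46.1% ± 2.94 of the listed counts in Hezuo cold livers and 48.6% ± 1.66 in Bama cold livers (SD, n = 3 each), and miR-148a-3p took 28.7% ± 1.45 in Hezuo cold and 27.6% ± 1.32 in Bama cold. Listed counts were 7280349 to 8123495 in the Hezuo cold libraries and 7184168 to 10032478 in the Bama cold libraries. Of the 774 entries, 460 had enough counts to be tested. Pearson's r of log2 abundance was 0.974 to 0.987 within a breed and 0.967 to 0.979 between the breeds. The first principal component of the 6 cold libraries held 41.1% of the variance and put all 3 Hezuo libraries on one side and all 3 Bama libraries on the other.

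MiR-204 was 7.68-fold higher and miR-184 9.06-fold lower in Hezuo cold livers than in Bama cold livers. In total 20 of the 460 entries tested differed between the breeds (4.35% called), 11 higher in Hezuo cold (2.39%) and 9 lower (1.96%). A call means an adjusted p below 0.05 by edgeR's quasi-likelihood test with Benjamini-Hochberg adjustment over all 460. The 20 calls held 19 distinct count profiles, because miR-490 and miR-490-3p are listed with the same sequence and counts. All 20 calls had non-overlapping groups, a property of 93 of the 460 entries (20.2%), with Hezuo above in 10.4% and below in 9.78%. By class, 13 of 234 porcine names were called (5.56%), 4 of 199 names taken from other species (2.01%) and 3 of 27 predicted miRNAs (11.1%). MiR-204-y, miR-9843-3p and predicted miRNAs B and C passed the filter on low counts only through the breed where they were higher, so their calls are given as a description. The other 16 calls also passed in the lower breed alone, counted over its libraries at both temperatures. MiR-194b-5p reached the filter minimum in 3 Bama libraries and miR-204-x in 4, those at normal temperature included. Names from other species carry the letters x, y or z after the number, and many are longer or shorter forms of a porcine miRNA. Without Bama cold 1 the count was 7, and without Hezuo cold 1 or Bama cold 3 it was 12. The median difference over all 460 was -0.04 log2 units, 47.4% of them were positive, and the median size of a difference was 0.24 log2 units.

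**Figure D1:**
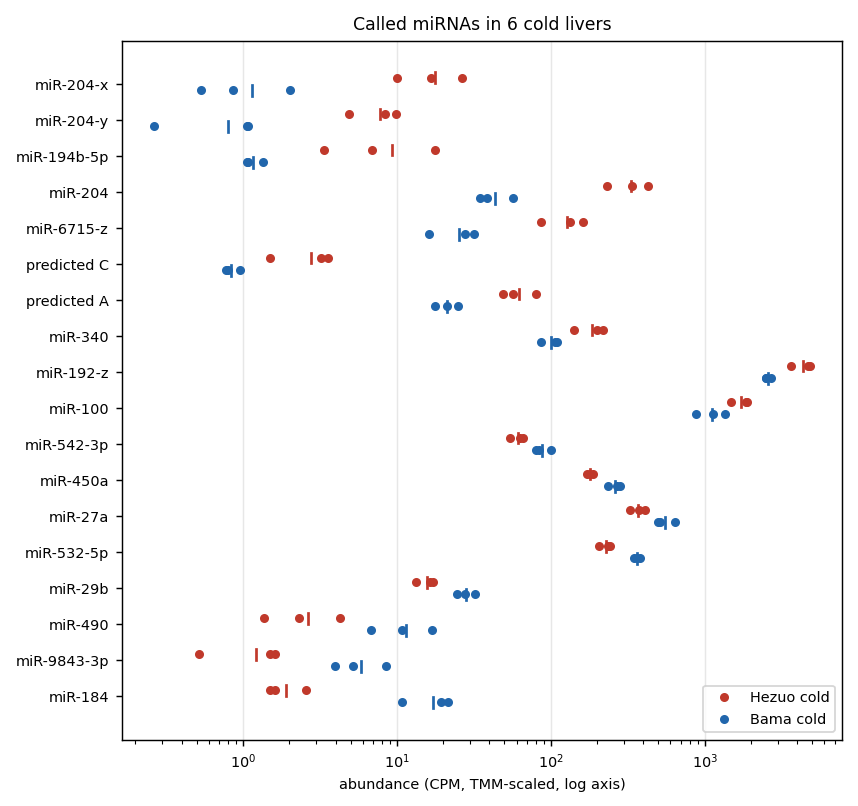
Abundance of the called entries in CPM (TMM-scaled, log axis), 1 point per library and a tick at each group mean, with Hezuo cold in red above Bama cold in blue. In each entry drawn the 3 red and 3 blue points do not overlap; predicted miRNA B, at 0 in Bama, is not drawn, and miR-490 stands for miR-490-3p too.

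MiR-204, known in human and mouse for its part in the retinal pigment epithelium and in pancreatic beta cells, was the called entry with the smallest p. Its gene lies within TRPM3 in the pig RefSeq annotation (Sscrofa11.1). MiR-204 had 428, 233 and 336 CPM (counts over the library size that TMM gives) in Hezuo cold livers, against 34.5, 56.7 and 38.6 CPM in Bama cold livers. The lowest Hezuo value was several times the highest Bama value. The difference was 2.94 log2 units (SE 0.26, adjusted p = 2.30e-05). The longer form miR-204-x, which adds 2 bases to the 3′ end, had 26.5, 10.1 and 16.7 CPM in Hezuo cold and 0.867, 2.04 and 0.531 CPM in Bama cold. It was higher by 3.97 log2 units (SE 0.47, adjusted p = 0.000257). The opposite strand miR-204-y had 8.43, 4.91 and 9.86 CPM in Hezuo cold and 1.06, 1.09 and 0.265 CPM in Bama cold, a difference of 3.22 (SE 0.49, adjusted p = 0.00147). All 3 entries were higher in Hezuo cold, without overlap between the breeds. In those cold libraries miR-204-x made up 4.91% ± 0.842 of its sum with miR-204 in Hezuo and 2.42% ± 1.05 in Bama (SD, n = 3 each), a ratio that did not pass its own test (1.05 log2 units, SE 0.29, adjusted p = 0.166, limma).

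The seed of miR-204 is TCCCTTT, and 3 entries of the table carry it. Their summed level was 351 ± 106 CPM in Hezuo cold and 44.5 ± 12.5 CPM in Bama cold (SD, n = 3 each), 7.88-fold. The third entry, miR-211-z, differs from miR-204 by T22A, counted from 1 at the 5′ end of miR-204, and too few of its counts were present for a test. The opposite strand has another seed, CTGGGAA, which no other entry shares.

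A pair of entries without porcine names were both higher in Hezuo cold livers. MiR-6715-z, named after another species, had 86.8, 163 and 134 CPM in Hezuo cold and 16.3, 31.9 and 27.6 CPM in Bama cold. It was 5.07-fold higher in Hezuo cold (2.34 log2 units, SE 0.45, adjusted p = 0.0117). Predicted miRNA A had 49.0, 80.5 and 57.3 CPM in Hezuo cold and 17.8, 21.0 and 25.1 CPM in Bama cold, and was higher by 1.55 (SE 0.32, adjusted p = 0.0117). Laid antiparallel, the sequences pair at 18 of 19 aligned bases, 16 as Watson-Crick pairs and 2 as G-U pairs. No other entry of the table paired with predicted miRNA A at more bases, and the shorter miR-6715-x paired at as many. For comparison, miR-204 and its opposite strand pair at 15 of 19. MiR-6715-z lost its call without Bama cold 1 or 3 and predicted miRNA A without Bama cold 1 or 2 (adjusted p up to 0.0776 for each).

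Of the other predicted miRNAs, predicted miRNA B (seed TCCCATT) had 9, 51 and 14 counts in the Hezuo cold libraries and 0 in each Bama cold library. Against a limit of 3 counts per Bama library, its Hezuo cold mean of 3.13 CPM was at least 8.57-fold higher. That mean leaned on Hezuo cold 2, with 6.59 CPM against 1.04 and 1.75 CPM in Hezuo cold 1 and 3. Predicted miRNA B had 23, 25 and 27 counts in Hezuo normal libraries and 0 in every Bama normal library, at least 7.54-fold by the mean. So 6 of 6 Hezuo libraries listed it and 0 of 6 Bama libraries did. Predicted miRNA C (seed CCTAGAG) had 3.58, 3.23 and 1.5 CPM in Hezuo cold and 0.771, 0.950 and 0.796 CPM in Bama cold (1.71 log2 units, SE 0.44, adjusted p = 0.0432). Neither reached a mean of 10 CPM, and both were chosen after their values were seen. The limits cover counting error in the Bama libraries only, not the spread between livers. Predicted miRNA B lost its call without Bama cold 1 (adjusted p = 0.0544), and predicted miRNA C without any single cold library but Hezuo cold 3 (adjusted p up to 0.174). Predicted miRNA C was also lost with no filter, by limma-voom, in the cold libraries alone and with the pig number as a block (up to 0.0788).

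Among hepatocyte miRNAs the calls were miR-194b-5p and the longer form miR-192-z, and the dominant miR-122-5p and miR-148a-3p were not called. Of 26 tested entries of the hepatocyte list, 2 were higher in Hezuo cold (2.39% of all entries) and 0 lower (1.96% of all entries). Positive values numbered 16 (47.4% of all entries), and the list median was 0.23 against -0.04 over all entries. At normal temperature the list median was 0.24. The list holds several forms of the same miRNAs, so its entries are not independent. Groups did not overlap in 10 of the 26, all with Hezuo above (10.4% of all entries). MiR-122-5p was at -0.12 (adjusted p = 0.75) and miR-148a-3p at 0.01 (adjusted p = 0.961). Shares of listed counts of the 10 most abundant entries were compared by an exact two-sided permutation test. Its smallest possible p with 3 against 3 is 0.1, so no entry could pass at 0.05. MiR-122-x reached that minimum, with 1.13% ± 0.143 in Hezuo cold and 0.851% ± 0.0587 in Bama cold (SD, n = 3 each). By edgeR miR-122-x was not called (0.36, adjusted p = 0.203). It was called with library totals (0.41, adjusted p = 0.041), but not with DESeq2 size factors (0.17) or upper quartile scaling (0.162). MiR-192-x took 4.16% ± 0.83 of counts in Hezuo cold and 3.22% ± 0.175 in Bama cold (SD, n = 3 each; exact permutation p = 0.2, adjusted p = 0.75 over the 10).

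MiR-192-z, a 24-nt form of miR-192, had 4815, 3629 and 4684 CPM in Hezuo cold and 2506, 2695 and 2514 CPM in Bama cold. It was 1.70-fold higher (0.77 log2 units, SE 0.16, adjusted p = 0.0117), the most abundant of the called entries. Its sequence is that of miR-192 with 3 more bases at the 3′ end. The 21-nt miR-192 itself had 23126, 20077 and 17779 CPM in Hezuo cold and 19782, 20179 and 25893 CPM in Bama cold (-0.11, adjusted p = 0.787), with overlapping groups. The 23-nt miR-192-x was at 0.31 (adjusted p = 0.312). The entry miR-215-z, at 0.32 (adjusted p = 0.246), is contained whole in miR-192-z, from its second to its second-last base, although it carries the name of miR-215. All entries with the seed TGACCTA together summed to 64382 ± 7864 CPM in Hezuo cold and 56509 ± 5032 CPM in Bama cold (SD, n = 3 each), and those sums overlapped. MiR-192-z made up 6.80% of that pool in Hezuo cold and 4.55% in Bama cold. With entries that share their first 16 bases summed before the fit, the miR-192 sum was at 0.28 (adjusted p = 0.328), which ends the call. MiR-192-z also lost its call without any single cold library but Hezuo cold 2 (adjusted p up to 0.0923).

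MiR-194b-5p differs from the main liver miRNA miR-194a-5p by A10G, counted from the 5′ end of miR-194a-5p, and by 1 more 3′ base. It had 6.93, 17.7 and 3.37 CPM in Hezuo cold and 1.35, 1.09 and 1.06 CPM in Bama cold. The Hezuo values spread widely but all lay above the Bama values, and the difference was 2.97 (SE 0.59, adjusted p = 0.0113). MiR-194a-5p had 3975, 3490 and 3826 CPM in Hezuo cold and 3859, 4186 and 5163 CPM in Bama cold (-0.23, adjusted p = 0.48). MiR-194b-5p was 0.239% of the entries with the seed GTAACAG in Hezuo cold and 0.0259% in Bama cold, and the sum of those entries overlapped between the breeds. How the authors divided counts between sequences 1 base apart was not stated with the table. MiR-194b-5p lost its call without Bama cold 1 or 3 (adjusted p up to 0.0544) and by limma-voom (0.0854).

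In the pig annotation the gene of miR-194b lies within IARS2 beside that of miR-215, while the gene of miR-192 lies beside that of miR-194a. MiR-215, its neighbour, had 67, 112 and 45.7 CPM in Hezuo cold and 36.7, 31.4 and 40.1 CPM in Bama cold, 1.06 log2 units (SE 0.30, adjusted p = 0.0658). It did not pass, although every Hezuo value lay above every Bama value and library 2 was the highest Hezuo library for both neighbours. MiR-802, a liver miRNA, had 7.74, 6.98 and 5.49 CPM in Hezuo cold and 1.35, 4.75 and 1.86 CPM in Bama cold (1.37, SE 0.39, adjusted p = 0.0658). MiR-215 and miR-802 were chosen after their values were seen.

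MiR-340 and miR-100 complete the entries that were higher. MiR-340 had 141, 199 and 219 CPM in Hezuo cold and 106, 110.3 and 86.4 CPM in Bama cold, 1.84-fold higher in Hezuo cold (0.88 log2 units, SE 0.17, adjusted p = 0.011). Its opposite strand, miR-340-y, was at 0.25 (adjusted p = 0.525), so of the strands the main one was called, and the ratio of the strands was at -0.61 (adjusted p = 0.211, limma). MiR-100, which represses MTOR in human cells, had 1877, 1481 and 1850.2 CPM in Hezuo cold and 1133, 1359 and 879 CPM in Bama cold (0.63, SE 0.16, adjusted p = 0.0436). It differs by T16A, counted from the 5′ end of miR-99a-5p, from the more abundant miR-99a-5p, which was at -0.13 (adjusted p = 0.672). The 6 entries with their shared seed ACCCGTA summed to 8604 ± 554 CPM in Hezuo cold and 8555 ± 559 CPM in Bama cold (SD, n = 3 each). MiR-100 was 20.2% of that sum in Hezuo cold and 13.1% in Bama cold. Its call was kept in 7 of 12 other settings and lost without Hezuo cold 1 or 3 or Bama cold 1 or 3 (adjusted p up to 0.174).

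**Figure D2:**
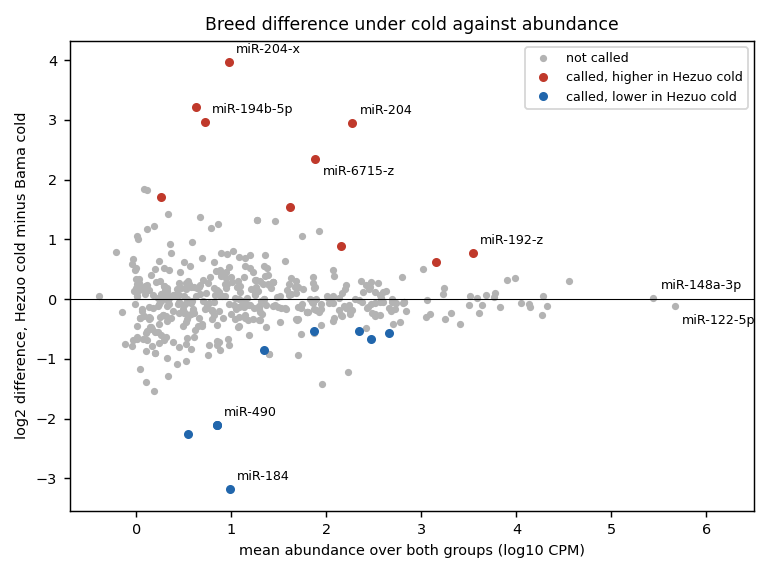
Each point is a tested entry, with its mean abundance over both cold groups (log10 CPM) on the horizontal axis and its log2 difference, Hezuo cold minus Bama cold, on the vertical axis. Calls above 1000 CPM are miR-192-z and miR-100, and the differences over 2 log2 units lie at lower abundance; 2 entries with 0 counts in all cold libraries of a breed are not drawn, which leaves 458.

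Hezuo cold livers held little miR-184, a miRNA known in human and mouse from the cornea and lens. It had 1.5, 2.59 and 1.62 CPM in Hezuo cold and 19.5, 21.4 and 10.9 CPM in Bama cold. The difference was -3.18 log2 units (SE 0.43, adjusted p = 0.000714), and the lowest Bama value was several times the highest Hezuo value. Its gene lies in a long non-coding RNA of the pig annotation. MiR-490, whose gene lies within CHRM2, the muscarinic receptor gene, had 2.31, 4.27 and 1.37 CPM in Hezuo cold and 6.84, 16.8 and 10.7 CPM in Bama cold. It was 4.31-fold lower in Hezuo cold (-2.11, SE 0.49, adjusted p = 0.023). MiR-9843-3p, from within SGMS2, had 1.62, 0.517 and 1.5 CPM in Hezuo cold and 8.48, 3.94 and 5.17 CPM in Bama cold (-2.26, SE 0.44, adjusted p = 0.011). Its mean was below 10 CPM in both groups, and it was chosen after its values were seen. MiR-490 lost its call without Hezuo cold 1 or 3 or Bama cold 2 or 3 (adjusted p up to 0.11) and with the first 16 bases summed (0.0573), and miR-9843-3p without Bama cold 1 (0.0544).

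The miR-29 family, known in human and mouse to repress collagen mRNAs, had 1 of 5 tested members lower, against 1.96% of all entries. MiR-29b had 13.3, 16.5 and 17.1 CPM in Hezuo cold and 27.6, 24.7 and 32.1 CPM in Bama cold, 1.80-fold lower in Hezuo cold (-0.85, SE 0.19, adjusted p = 0.0177). The more abundant miR-29a-3p had 480.5, 515 and 557 CPM in Hezuo cold and 661, 669 and 699 CPM in Bama cold, non-overlapping but not called (-0.39, SE 0.12, adjusted p = 0.0825). Of the 5 members, among them the opposite strand miR-29-x, 4 were negative, against 52.6% of all entries, with a median of -0.28. At normal temperature the family median was -0.06, and miR-29a-3p was at 0.07 (adjusted p = 0.776, edgeR). Genes for miR-29b stand beside those of both miR-29a and miR-29c in the pig annotation, so the counts do not tell which gene they came from. MiR-29b lost its call without Hezuo cold 1, Bama cold 1 or Bama cold 3 (adjusted p up to 0.0935), and in the cold libraries alone or with the first 16 bases summed (up to 0.0585).

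A pair of miRNA gene clusters had values below 0 in every tested member. In the cluster of miR-424, miR-503, miR-450 and miR-542, 2 of 10 were lower (1.96% of all entries), 0 higher, all 10 were negative (52.6% of all entries) and the median was -0.50. At normal temperature the median of this cluster was -0.42. Groups did not overlap in 4 of the 10, each with Hezuo below, against 9.78% of all entries. MiR-450a had 188, 181 and 173 CPM in Hezuo cold and 281, 269 and 237 CPM in Bama cold (-0.54, SE 0.11, adjusted p = 0.011). MiR-542-3p had 66.3, 54.2 and 62.9 CPM in Hezuo cold and 84.3, 101 and 79.9 CPM in Bama cold (-0.53, SE 0.14, adjusted p = 0.0433). The genes of both lie within 20000 bp of each other in the pig annotation, beside MIR450B and MIR450C. MiR-450c-5p, the most abundant member, differs from miR-450a by C22T, counted from the 5′ end of miR-450c-5p, and was at -0.41 (SE 0.12, adjusted p = 0.0825) with 434 ± 59.5 CPM in Hezuo cold and 577 ± 66.7 CPM in Bama cold (SD, n = 3 each). At normal temperature miR-450c-5p was called, at -0.48 (adjusted p = 0.0455, edgeR). MiR-424-3p was at -0.94 (SE 0.26, adjusted p = 0.0561). The seed TTTGCGA of the miR-450 entries summed to 615 ± 66.6 CPM in Hezuo cold and 840.4 ± 88.5 CPM in Bama cold, without overlap. MiR-450a lost its call without Bama cold 1 (adjusted p = 0.0661), with library totals, in the cold libraries alone and with the first 16 bases summed (up to 0.16), and miR-542-3p without any single cold library (adjusted p up to 0.169).

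In the cluster of miR-532, miR-500, miR-660 and miR-362, 1 of 6 tested members was lower (1.96% of all entries), all 6 were negative (52.6% of all entries) and the median was -0.65. At normal temperature the median of this cluster was -0.76. MiR-532-5p carried most of its counts, with 236, 243 and 207 CPM in Hezuo cold and 379.8, 345 and 363 CPM in Bama cold (-0.67, SE 0.14, adjusted p = 0.0117). MiR-660 (-0.75, adjusted p = 0.273) and miR-362 (-0.63, adjusted p = 0.326) had group means under 5 CPM. Members of a cluster come from neighbouring genes and the same libraries, so they are not independent. MiR-532-5p lost its call without Hezuo cold 3 or Bama cold 1 (adjusted p up to 0.0544) and with library totals (0.0566). All members of both clusters stayed negative under each of the other scalings tried.

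MiR-27a, which represses fat cell differentiation in human and mouse cells, had 328, 410.0 and 377 CPM in Hezuo cold and 642, 515 and 501 CPM in Bama cold (-0.57, SE 0.15, adjusted p = 0.0439). MiR-27b-3p, which differs from it by T19C counted from the 5′ end of miR-27b-3p, was at -0.33 (adjusted p = 0.257). The summed entries with their seed TCACAGT reached 2319 ± 171 CPM in Hezuo cold and 2913 ± 261 CPM in Bama cold (SD, n = 3 each), without overlap. MiR-23a, from the same gene cluster, was at 0.04 (adjusted p = 0.958), and miR-24-3p was at -0.29 (adjusted p = 0.186). The call of miR-27a was held in 1 of 12 other settings and lost without any single cold library but Hezuo cold 2 (adjusted p up to 0.221), and that of miR-542-3p in 2 of 12.

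**Figure D3:**
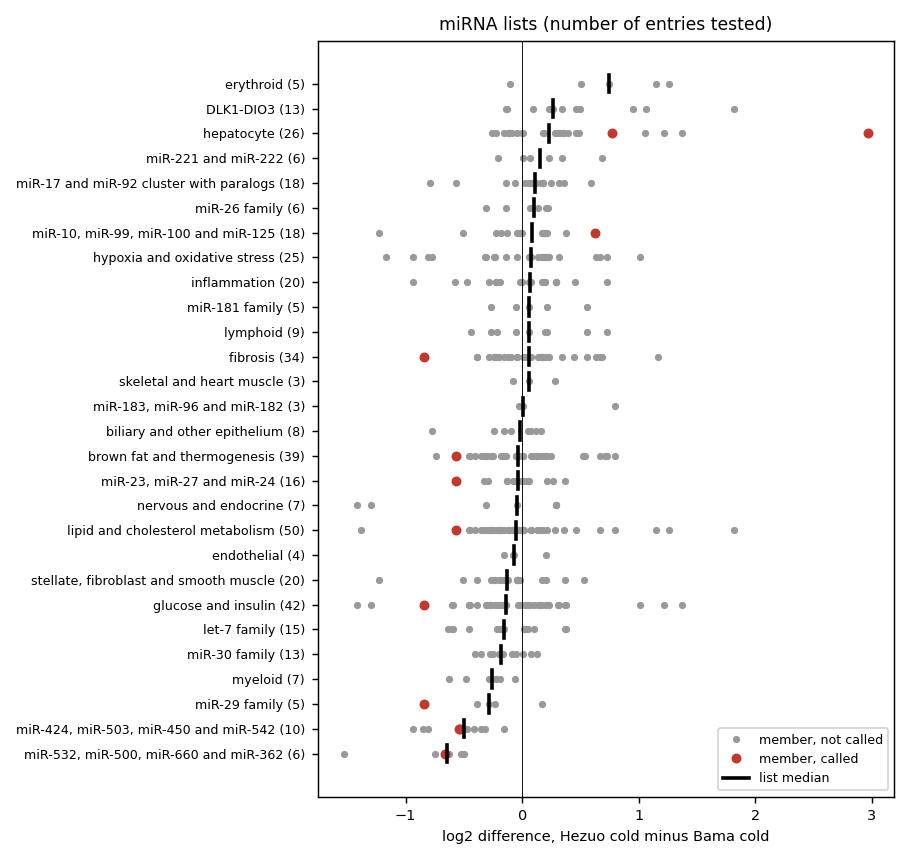
Log2 differences, Hezuo cold minus Bama cold, of the tested entries of each list, with called entries in red, others in grey and the list median as a black bar. Both clusters at the bottom have every point left of 0, with medians of -0.50 and -0.65.

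The other metabolic and stress lists lay near the median of all entries. Of lipid and cholesterol metabolism 0 of 50 tested entries were higher (2.39% of all entries) and 1, miR-27a, was lower (1.96% of all entries), with a median of -0.05. Of glucose and insulin 0 of 42 were higher and 1, miR-29b, was lower, with a median of -0.14. Of brown fat and thermogenesis 0 of 39 were higher and 1, miR-27a again, was lower, with a median of -0.03. The counts of calls in these lists were near the shares over all entries. With library totals in place of TMM the lipid median was 0.003 and the brown fat median 0.02, the opposite sign. The medians were 0.08 for hypoxia and oxidative stress (25 entries), 0.07 for inflammation (20) and 0.06 for fibrosis (34), with only miR-29b called among them. Over all 460 entries the median was -0.04. Lists overlap, and an entry named after another species cannot always be given to 1 family member.

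Among miRNA families, let-7 had 0 of 15 called (median -0.15), miR-30 had 0 of 13 (-0.18), miR-26 had 0 of 6 (0.10) and miR-181 had 0 of 5 (0.06). Over all entries 4.35% were called and 47.4% had positive values, so few calls would fall in lists of this size. The miR-10, miR-99, miR-100 and miR-125 list had 1 of 18, miR-100 (median 0.08), and the miR-23, miR-27 and miR-24 list 1 of 16, miR-27a (-0.04, and 0.01 with library totals). The miR-17 and miR-92 cluster with its paralogs had 14 of 18 positive and 0 called (median 0.11), and the miR-221 and miR-222 list 5 of 6 positive and 0 called (0.15). The imprinted DLK1-DIO3 cluster had 11 of 13 positive and 0 called (median 0.26), and miR-183, miR-96 and miR-182 had a median of 0.005. Let-7c was next to the threshold, with 673, 703 and 719 CPM in Hezuo cold and 507, 550.1 and 561 CPM in Bama cold (0.37, SE 0.10, adjusted p = 0.0561). It was chosen after its values were seen.

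Markers of other cell types were not called in either direction. Over all entries 4.35% were called, 47.4% were positive and 52.6% negative. Erythroid markers had 4 of 5 positive (median 0.75), and their summed level was 670.4 to 2449 CPM in Hezuo cold and 538 to 1343 CPM in Bama cold. The largest, miR-451, had 872, 614 and 2209.9 CPM in Hezuo cold and 492, 843 and 1275 CPM in Bama cold (0.50, adjusted p = 0.792), with overlapping groups. Myeloid markers had 7 of 7 negative (median -0.26), with sums of 466 to 655 CPM in Hezuo cold and 570.4 to 833 CPM in Bama cold. Stellate, fibroblast and smooth muscle markers had 16 of 20 negative (median -0.13), but 12 with library totals and 11 with upper quartile scaling, with sums of 19617 to 24548 CPM in Hezuo cold and 22217 to 29972 CPM in Bama cold. Medians were 0.06 for 9 lymphoid, -0.07 for 4 endothelial, -0.02 for 8 biliary and other epithelial, 0.05 for 3 muscle and -0.05 for 7 nervous and endocrine entries. The epithelial and nervous medians were 0.03 and 0.008 with library totals. The part of cell makeup in the called differences was not tested.

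The same breeds differed at normal temperature in many of the same entries. There 17 of 460 entries were called (3.70%), 12 higher in Hezuo normal (2.61%) and 5 lower (1.09%). All 20 entries called under cold had the same sign at normal temperature, as did 310 of all 460 (67.4%). Called at both temperatures were 8 entries, 40% of the cold calls and 47.1% of the normal calls. Among those 8 were the 4 that passed the filter on low counts only through the breed where they were higher. All 20 were non-overlapping under cold, which their choice by cold values favours, and 17 were so in the same direction at normal temperature too. Of all 460 entries, 93 (20.2%) did not overlap under cold, and 35 (7.61%) did not overlap in the same direction at both temperatures. Cold and normal differences come from separate libraries but 1 model, and correlated across entries at Pearson's r = 0.762 and Spearman's rho = 0.503, as a description over 460 entries that are not independent.

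MiR-204 had 415, 488 and 348 CPM in Hezuo normal and 93.8, 70.8 and 107 CPM in Bama normal (2.21 log2 units, SE 0.25, adjusted p = 0.000417). MiR-184 had 7.09, 2.03 and 4.43 CPM in Hezuo normal and 45.8, 28.5 and 32.8 CPM in Bama normal (-2.99, SE 0.40, adjusted p = 0.000954). Both were thus called at either temperature, in the same direction. The others called at both were miR-204-x (2.55 at normal temperature), miR-204-y (2.83), miR-192-z (0.73), miR-9843-3p (-2.45), predicted miRNA C (1.97) and predicted miRNA B. Calls of miR-204-y, miR-9843-3p and predicted miRNAs B and C are again a description only, because of the filter.

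Of the 20 cold calls 17 had an unadjusted p below 0.05 at normal temperature, and the other 3 were miR-29b, miR-6715-z and predicted miRNA A. MiR-29b had 8.93, 11.1 and 12.5 CPM in Hezuo normal and 12.8, 12.8 and 12.2 CPM in Bama normal (-0.21, adjusted p = 0.586), with overlapping groups. MiR-6715-z had 89.7, 60.6 and 101 CPM in Hezuo normal and 24.9, 81.2 and 34.2 CPM in Bama normal (0.84, adjusted p = 0.317). Predicted miRNA A had 38.9, 32.4 and 44.5 CPM in Hezuo normal and 20, 45.1 and 17.5 CPM in Bama normal (0.49, adjusted p = 0.425). In both the Bama normal library 2 lay within or above the Hezuo normal values, which the Bama cold libraries did not.

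**Figure D4:**
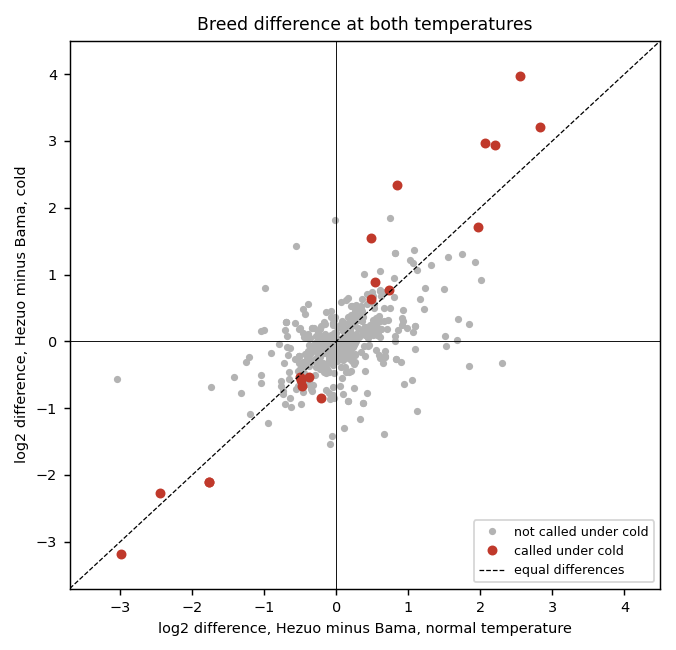
Each point is a tested entry, with its log2 difference Hezuo minus Bama at normal temperature on the horizontal axis and under cold on the vertical axis; entries called under cold are red and the dashed line marks equal differences. All red points have the same sign on both axes, and the 2 entries with 0 counts in all cold libraries of a breed are not drawn.

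Whether the breed difference itself changed with temperature was tested as the difference of the differences. None of the 460 entries passed by edgeR (0.00%), with 25 at an unadjusted p below 0.05 (5.43%) and a smallest adjusted p of 0.766. DESeq2 also called 0. The difference was larger in size under cold for 18 of the 20 cold calls, a count that the choice of entries by their cold values favours. Of those 20, 4 had an unadjusted p below 0.05 for the change. These were miR-6715-z (1.5, SE 0.61), predicted miRNA A (1.06, SE 0.45) and miR-29b (-0.63, SE 0.27), each with an adjusted p of 0.766, and miR-204-x (1.41, SE 0.62, adjusted p = 0.776). MiR-204 was at 0.74 (SE 0.34, adjusted p = 0.892) and miR-184 at -0.19 (SE 0.56, adjusted p = 0.998).

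Opposite strands of a miRNA, and entries that share their first 16 bases, were compared as ratios within each library, with 0.5 added to each count, by limma. Entries that share those bases are in part length forms of 1 sequence and in part other sequences, among them other members of a family. Of 214 ratios 1 passed (0.467%), and 22 had an unadjusted p below 0.05 (10.3%). It was miR-151-x, which extends miR-151-5p by 2 bases, over the opposite strand miR-151-3p. MiR-151-x had 16, 17 and 13 counts in Hezuo cold libraries and 5, 3 and 5 in Bama cold libraries. MiR-151-3p had 1944, 2663 and 1972 CPM in Hezuo cold and 2876, 2665 and 3217 CPM in Bama cold. The ratio was 2.19 log2 units higher in Hezuo cold (SE 0.37, adjusted p = 0.0337), and the 21-nt miR-151-5p had overlapping groups (-0.12, adjusted p = 0.884). This ratio rests on few counts and lost its call whichever single cold library was left out.

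Counted as a length form was an entry that contains the most abundant sequence with its first 16 bases, or is contained in it. Of 65 longer forms 45 had positive values and 0 were called, with a median of 0.20, and of 10 shorter forms 3 were positive, with a median of -0.29. Of 93 opposite strands 46 were positive (median -0.005), and of 44 other sequences with the same first 16 bases 27 were (median 0.17). The 10 most abundant entries of the table had 7 longer forms, all with positive values and none called, at a median of 0.34. The highest of the 7 was miR-101-z over miR-101 at 0.74 (SE 0.25, adjusted p = 0.251), and the lowest were miR-143-y over miR-143-3p at 0.17 (SE 0.34, adjusted p = 0.82) and miR-21-x over miR-21-5p at 0.04 (SE 0.14, adjusted p = 0.895). MiR-192-z made up 9.95% ± 0.594 of its sum with miR-192-x in Hezuo cold and 7.46% ± 0.42 in Bama cold (SD, n = 3 each; 0.45, adjusted p = 0.0614). MiR-122-x, which is 24 nt long and differs from miR-122-5p at its 3′ end, made up 2.38% ± 0.169 of their sum in Hezuo cold and 1.72% ± 0.0596 in Bama cold (0.48 log2 units, adjusted p = 0.0614). MiR-194-x made up 3.53% ± 0.467 of its sum with miR-194a-5p in Hezuo cold and 2.21% ± 0.176 in Bama cold (0.69, adjusted p = 0.0614). The entries named here were chosen after their values were seen, and none passed. Forms of the same library share its RNA and its size selection, so their ratios are not independent.

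**Figure D5:**
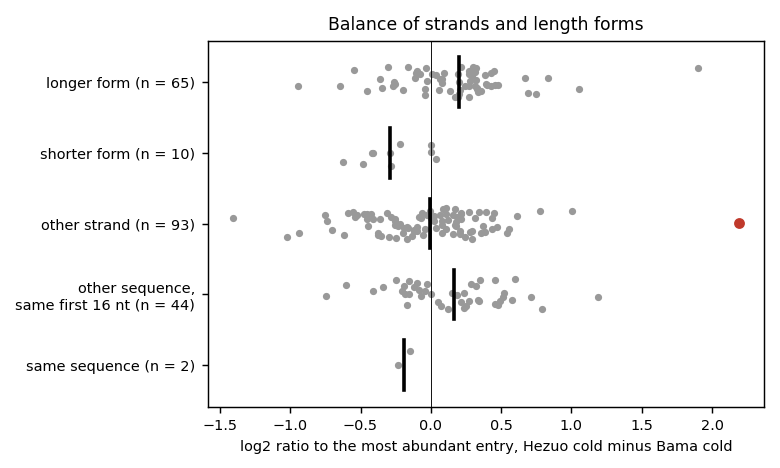
Log2 ratio of each entry to the most abundant entry of its miRNA or of its first 16 bases, Hezuo cold minus Bama cold, 1 point per ratio (spread vertically at random) and a black bar at each median. Of the longer forms 45 of 65 lie right of 0, with a median of 0.20; the single called ratio, miR-151-x over miR-151-3p, is red.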

How the data were processed

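Total RNA was extracted from liver with TRIzol and RNA of 18 to 30 nt was cut from a gel, per the labels' protocols. The authors deposited 1 table with raw counts and TPM per library, per the file headers; aligner, database and genome build: not given in the sources used here. Deposited TPM values gave library totals, of which 86.8% to 88.2% were listed in the 6 cold libraries; the length column is the authors'. No column belonged to an unknown sample, and 2 emptied lines of the table were not analysed here. Counts were fitted with edgeR 4.0.16 (R 4.3.3) in 1 model of all 12 libraries: TMM, filterByExpr, robust quasi-likelihood tests and Benjamini-Hochberg adjustment; the biological coefficient of variation was 25.0%. Ratios were tested with limma 3.58.1 on log2 values, and shares by exact permutation. Scripts were tested on simulated data. The members and lists were chosen with earlier results of these data known.

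Named entries were up to 12 calls per direction with non-overlapping groups and at least 10 CPM in a group, calls above 1000 CPM, called list members, the 10 most abundant entries, and their other strands and forms. Alternatives were DESeq2 1.42.0 and limma-voom, 3 other scalings, 2 other filters, the cold libraries alone, the pig number as a block, forms summed or collapsed, no miR-122-5p, and each library left out. Replicates differed far beyond counting error (chi-squared per degree of freedom at least 71.5), so none was counted as a duplicate. Entries with counts identical to another numbered 47.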

Additional observations from a re-analysis of the deposited data

Results flagged for a closer look

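Among entries with too few counts to be tested, several were listed in all 3 cold libraries of 1 breed and in none of the other. In Bama cold these were miR-670-x (7 counts in sum), miR-876-y (4), predicted miRNA E and another predicted miRNA (6). In Hezuo cold they were miR-16-z and miR-735-y (5 each). Predicted miRNA E had the highest sum. It summed to 0 counts in the Hezuo cold libraries and 10 in the Bama cold libraries, above the 9 that a count of 0 in each of 3 libraries allows (3 per library). At normal temperature it had 1 count in Hezuo and 5 in Bama, so it was listed in both breeds there. The difference was not tested.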

How the results depend on the processing

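The cold comparison gave 13 calls with the first 16 bases summed and 14 to 25 under the other settings kept with all 6 cold libraries, against 20. Leaving out 1 cold library gave 7 to 21, with 7 without Bama cold 1 and 12 without Hezuo cold 1 or Bama cold 3; leaving out a normal library, a choice made after seeing the data, gave 16 to 20. Calls split into 11 higher and 9 lower with TMM, 13 and 5 with library totals, 14 and 7 with upper quartile scaling, 10 and 3 with summed first bases, and 13 and 7 without miR-122-5p. MiR-204, miR-204-x, miR-204-y, miR-184 and miR-340 were called in all 12 alternatives and all 6 cold leave-outs. Without Bama cold 1, miR-9843-3p and predicted miRNA B (adjusted p = 0.0544 each), miR-6715-z, predicted miRNA A (0.0776 each) and miR-194b-5p (0.0544) were not. Among the 12 alternatives, miR-542-3p and miR-27a reached adjusted p = 0.202 and 0.251. None of the 20 called entries changed sign under any of these settings.

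Normal temperature gave 27 calls with upper quartile scaling (25 higher, 2 lower), 38 with DESeq2 (18 higher, 20 lower) and 22 with library totals (7 higher, 15 lower). The change between temperatures stayed at 0 calls under each setting. The ratio calls numbered 2 in the cold libraries alone and 0 whichever cold library was left out. With the pig number as a block, calls numbered 16 under cold, 11 at normal temperature and 0 for ratios. Same-numbered Hezuo and Bama cold libraries correlated in their deviations at 0.161, 0.0337 and 0.117, against at most -0.00166 between other numbers. Thus 3 of 3 Hezuo libraries were closest to their own number. Deviations were taken from the mean of each group of 3 and sum to 0. Positive values between same numbers therefore push those between other numbers below 0, so the 2 sets are not independent. Whether a number marks a shared batch or other factor cannot be told from 3 libraries a group. The main tests treated the libraries as separate. Depth limits low entries: 3 counts are 0.289 to 0.407 CPM in the cold libraries.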

Other observations

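Predicted miRNA D (seed GTGACTG), chosen after its values were seen, was listed in Bama libraries only. It had 0 counts in each Hezuo cold library and 0, 40 and 41 counts in the Bama cold libraries. At normal temperature it had 0 counts in each Hezuo library and 2, 0 and 70 counts in the Bama libraries. Its values overlapped, with 0 in some Bama libraries, and it was not called (adjusted p = 0.464 under cold). Together with predicted miRNA B, which only Hezuo libraries listed, it gives 1 tested entry listed in each breed alone under cold.

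The hypoxia miRNA miR-210 had 0.578, 0.646 and 0.749 CPM in Hezuo cold and 1.16, 2.04 and 1.33 CPM in Bama cold, without overlap and not called (-1.16, SE 0.44, adjusted p = 0.204). At normal temperature the values were 1.47, 1.45 and 1.34 CPM in Hezuo and 1.20, 0.773 and 1.42 CPM in Bama (0.33, adjusted p = 0.716). This miR-210 entry is 22 nt long and the minor form beside the 24-nt miR-210-z. Of their sum it made up 8.53% ± 1.39 in Hezuo cold and 13.0% ± 6.47 in Bama cold (SD, n = 3 each). It was chosen after its values were seen. Of the 25 tested entries of the hypoxia list it was the lowest under cold, and 15 were positive. MiR-10b had 63.1, 199 and 42.8 CPM in Hezuo cold and 73.3, 581 and 60.0 CPM in Bama cold (-1.23, adjusted p = 0.621). In both breeds the second library held most of it. Entries called at normal temperature and not under cold numbered 9, among them miR-455-5p (-0.73 at normal temperature, -0.32 under cold) and miR-508-y (1.84 at normal temperature, 0.26 under cold).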
